A study of Homo sapiens with 2 samples.

Results

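USP30-AS1 is an antisense RNA gene on the long arm of chromosome 12, and it lies over the start of USP30, which is read from the opposite strand. The genes described here are its neighbours: 42 protein-coding genes of the deposited table, in order from WSCD2 and CMKLR1 on one side of USP30 to CCDC63 and MYL2 on the other, out of 20289 genes in the table. They were chosen by symbol and place to ask whether genes near the target differed when the antisense RNA was targeted. In the GENCODE 29 annotation (build GRCh38) they span 2791 kb, at chr12:108129471-110920722, with 19 genes on the plus strand and 23 on the minus strand. No other gene with enough counts to be compared lies inside this span.

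The RNA came from MDA-MB-231, an established human triple-negative breast cancer cell line. In 1 library the cells had been transfected with an siRNA against USP30-AS1 (the knockdown library), and in 1 library with a negative control siRNA (the control library). Messenger RNA was selected with oligo(dT) beads and sequenced. The dose, the time after transfection and the siRNA sequence are not given in the sources used here.

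An antisense RNA can act on the gene it overlaps, on other genes of the same chromosome region (in cis), or on genes elsewhere (in trans). An siRNA acts mainly on RNA that has already been made, and it can also act on other transcripts that its guide strand pairs with. USP30, the overlapped gene, encodes a deubiquitinase of the mitochondrial outer membrane that removes ubiquitin chains from that membrane and so restrains mitophagy. The region also holds genes for DNA repair, sterol and cobalamin metabolism, actin assembly and cilia.

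The knockdown library held 19569214 counts and the control library 23287817. Most lineage markers were those of the labelled line: VIM had 43558 counts in the knockdown library and 36576 in the control library, while PGR, CD3E and AIF1 had 0 in both, and PTPRC had 0 counts in the knockdown library and 2 in the control library. CD14, listed as a leukocyte marker, was detected, with 42 counts in the knockdown library and 40 in the control library. CDH1, the epithelial cadherin, had 0 counts in the knockdown library and 5 in the control library, and ESR1 had 13 and 9. ERBB2, listed as low in this line, was measured at 1127 counts in the knockdown library and 1270 in the control library. The mesenchymal markers did not move together: CD44 had 7554 counts in the knockdown library and 3647 in the control library, while ZEB1 had 1398 and 2368. USP30-AS1 itself has no row among the genes analysed here, so its own level was not analysed here. With 1 library per group there is no test, no p-value and no replicate check for any difference below. Intervals on a fold are 95% exact binomial (Clopper-Pearson) intervals, and they cover counting error only, not differences between cultures. Copies made by PCR are not independent molecules, so the intervals can be too narrow even for counting error.

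The start of USP30 is the one place where target and region meet, so its sequence is shown first. RefSeq gives USP30 an inner start at position 109052576 of GRCh38.p14. The window from 250 bases before this start to 50 bases after it is chr12:109052326-109052625 on the plus strand. Capitals mark the 276 bases that fall inside the last exon of USP30-AS1, which is transcribed from the other strand.
USP30 inner start window: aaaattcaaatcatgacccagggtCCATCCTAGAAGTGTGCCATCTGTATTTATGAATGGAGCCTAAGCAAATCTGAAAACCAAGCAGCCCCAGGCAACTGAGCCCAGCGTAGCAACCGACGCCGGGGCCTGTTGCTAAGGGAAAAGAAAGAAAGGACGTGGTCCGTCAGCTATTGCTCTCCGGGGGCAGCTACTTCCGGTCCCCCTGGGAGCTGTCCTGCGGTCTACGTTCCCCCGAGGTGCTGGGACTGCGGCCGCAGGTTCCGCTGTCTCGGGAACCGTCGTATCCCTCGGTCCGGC

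In GENCODE 29, USP30-AS1 lies at chr12:109052350-109053952 on the minus strand and has 2 exons with 656 exonic bases, of which 233 coincide with exons of USP30. Of the 10 annotated USP30 transcripts, 5 start inside that span, among them the longest, a protein-coding transcript of 3742 bases. Its exons share 153 bases with the antisense exons. Another protein-coding transcript, with 2483 bases, starts 30863 bases before the antisense start and has 0 shared exonic bases, and 4 further transcripts start after the antisense gene. The inner and outer starts differ in composition: the inner window above holds 19 CpG dinucleotides and the window at the outer start holds 0, where the median over all RefSeq promoter windows was 14.

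**Figure D1:**
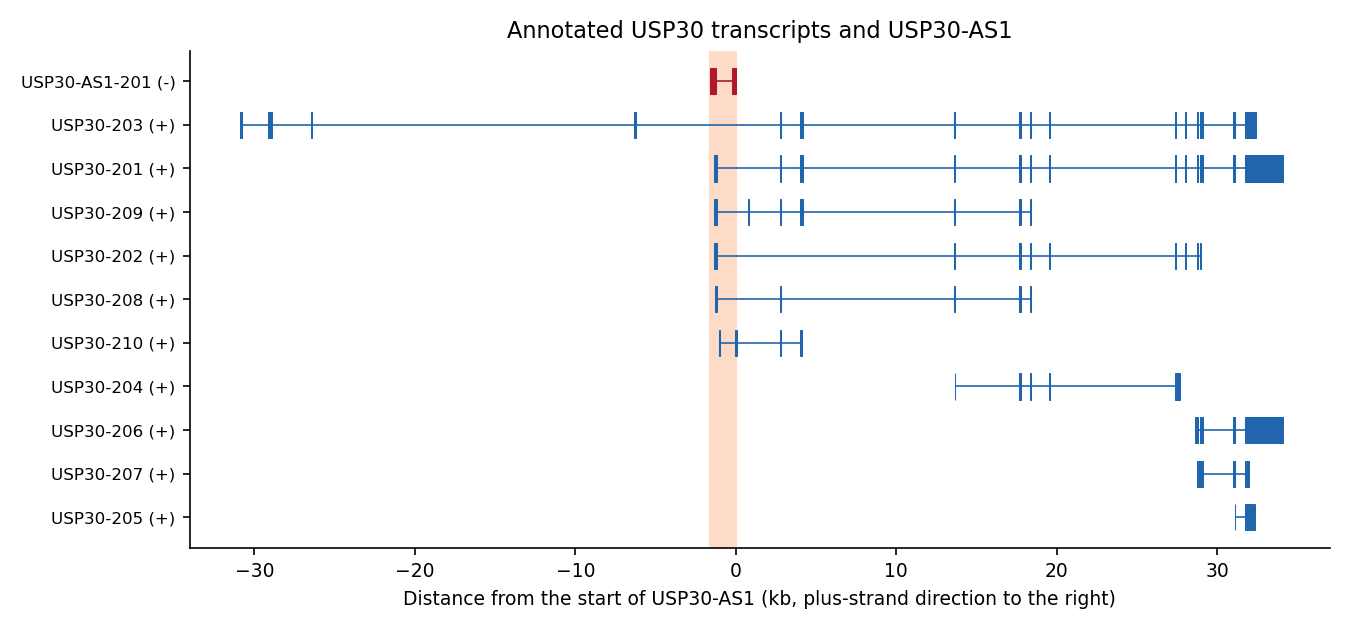
Annotated USP30 transcripts and USP30-AS1, one row each, with exons as boxes, introns as lines and the span of the antisense gene shaded; the x axis is distance in kb from the start of USP30-AS1. 5 USP30 transcripts start inside the antisense gene, 1 starts before it and 4 start after it.

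The members lay on both sides of 0, and most differed by less than 1.5-fold. Of the 42 genes, 30 had a mean of at least 50 counts over both libraries and were compared. For each, its count was expressed as CPM, a share of the library's total, then scaled between libraries by TMM factors, and given as the log2 of knockdown over control after adding 0.5 CPM, so that values below 0 stand for genes with less RNA in the knockdown library. On that scale 16 of the 30 (53.3%) were below 0, where 50.4 percent of all 11530 compared genes were. Their median was -0.07, with quartiles of -0.44 and 0.20, against a median of -0.00 over all compared genes with quartiles of -0.23 and 0.22. The median over the other 585 compared genes of chromosome 12 was 0.03, and 47.2% of them were below 0.

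Only CMKLR1 was at least 2-fold lower among the 30, where 1.60 percent of all compared genes were, and only GLTP was at least 2-fold higher, where 1.55 percent of all compared genes were. A difference of at least 1.5-fold was found in 6 members, 5 lower and 1 higher, where 13.1 percent of all compared genes passed that size in either direction. The other 24 (80.0%) stayed within 1.5-fold, against 86.9% of all compared genes. The 5 lower genes were CMKLR1, TCTN1, MMAB, USP30 and UBE3B. They do not lie side by side except for UBE3B and MMAB. Neighbouring compared members had the same sign in 12 of 29 neighbouring pairs. That share was not computed for all compared genes, so 12 of 29 has no reference here and its size cannot be judged.

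**Figure D2:**
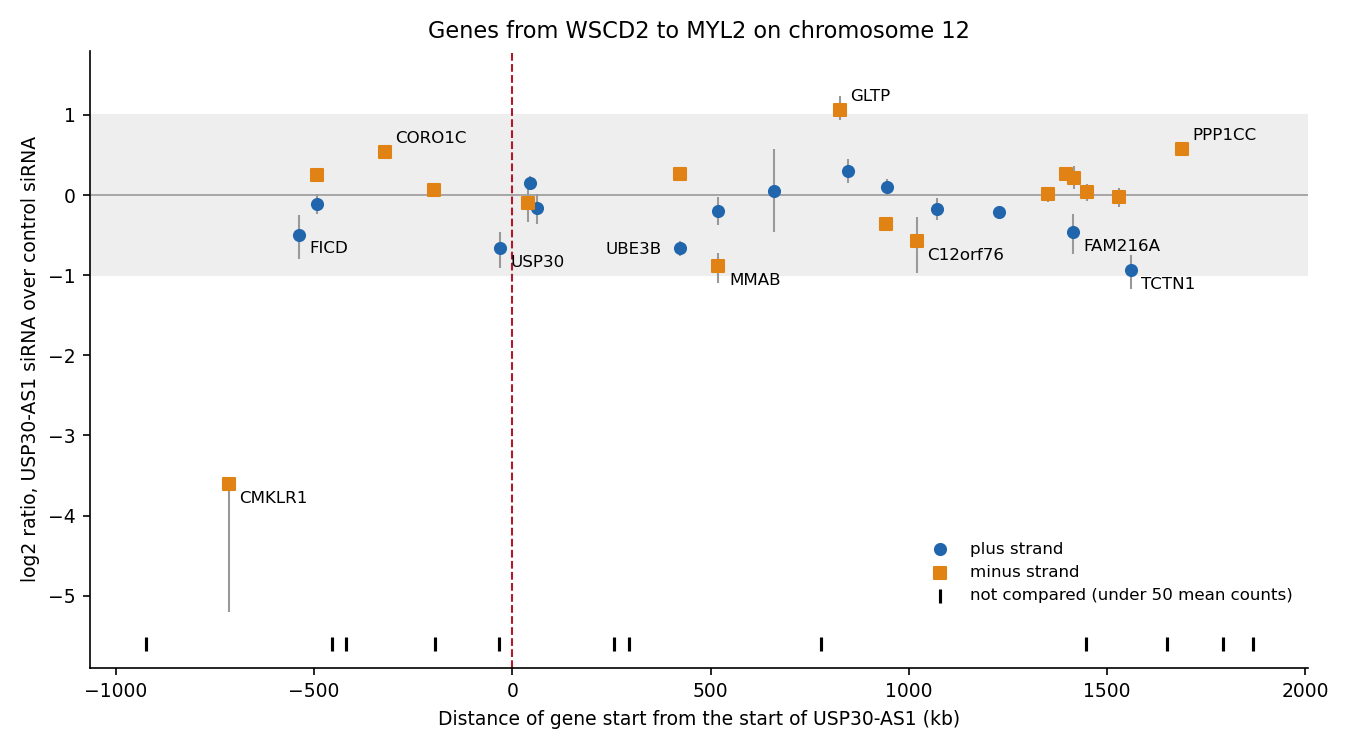
Log2 ratio of knockdown over control for the 30 compared genes (points, 0.5 CPM added to each library) against the distance of each gene's start from the start of USP30-AS1 in kb; bars are 95% counting intervals of the fold without the added 0.5 CPM. Circles are plus-strand and squares minus-strand genes, the grey band is within 2-fold, the dashed line is the target, and ticks at the foot are the 12 genes not compared. CMKLR1, at -3.61, lies far below the rest and GLTP, at 1.07, above them, while the remaining points lie between -0.94 and 0.58.

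The values are given here by distance from the target, and no trend with distance was tested. The 5 compared genes whose start lies under 250 kb from the start of USP30-AS1 had a median log2 ratio of -0.11, with values between -0.67 and 0.16. The 14 between 250 and 1000 kb had a median of -0.03, and the 11 beyond 1000 kb also had -0.03. Both genes past 2-fold were in the middle class, CMKLR1 at 714.6 kb before the target and GLTP at 826.5 kb after it. The 7 compared members before the target had a median of -0.11 and the 23 after it a median of -0.03.

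The flanks on either side of the region had medians near 0. The 20 compared genes nearest before it (chr12:104064457-107761272) had a median log2 ratio of -0.05, 11 of them were below 0, and 0 were past 2-fold. The 20 nearest after it (chr12:111360651-113192368) had a median of -0.07 and 13 below 0, where 50.4 percent of all compared genes were below 0. Of these 20, 3 were at least 2-fold lower, where 1.60 percent of all compared genes were. ACAD10, an acyl-CoA dehydrogenase family gene, had 276 counts in the knockdown library and 701 in the control library (log2 ratio -1.02). The others were the interferon-induced genes OAS1 (357 against 970, -1.12) and OAS2 (114 against 330, -1.17). Their products make the oligoadenylate signal that activates RNase L. OAS3, which lies between OAS1 and OAS2, was not lower (1662 against 1925, 0.09).

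The 12 genes that were not compared are mostly genes of other tissues. TMEM119, a membrane protein used as a microglial marker, DAO, a D-amino acid oxidase, SVOP, a synaptic vesicle protein, FOXN4, a transcription factor of neural progenitors, TRPV4, a cation channel, and MYL2, a cardiac myosin light chain, had 0 counts in both libraries. At this depth a gene with 0 counts could still lie at up to 0.153 CPM in the knockdown library and up to 0.129 CPM in the control library. SELPLG, the P-selectin ligand of leukocytes, came nearest to the minimum, with 39 counts in the knockdown library and 34 in the control library. HVCN1, a proton channel, had 12 counts in the knockdown library and 8 in the control library, and MYO1H, a myosin, had 3 and 10. RAD9B, a relative of the checkpoint clamp subunit RAD9A, had 6 counts in the knockdown library and 4 in the control library. WSCD2 had 1 and 2 counts, and CCDC63, a coiled-coil gene of the testis, had 1 and 0. At such counts no direction was detectable.

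USP30 was lower in the knockdown library, with 246 counts there and 487 in the control library. That is 1.61-fold lower (interval 1.38 to 1.88), a log2 ratio of -0.67. The deposited FPKM values, which are per length, were 5.97 in the knockdown library and 7.47 in the control library, a smaller difference with a log2 ratio of -0.32. The gap between both scales means that the length used for USP30 differed between the libraries. Dividing the counts by FPKM and the library total gave an implied mean transcript length of 2106 bases in the knockdown library, against 2799 bases in the control library, a log2 ratio of -0.41. Of 11111 genes with at least 1 FPKM in both libraries, 118 (1.06%) had a ratio this low or lower. Among the other 27 members with such a value the ratio ran from -0.26, in C12orf76, to 0.08, in MVK, and UBE3B had 3929 bases in the knockdown library and 4416 in the control library. The median over the 28 was -0.01. The 2 compared members left out of these 28 were under 1 FPKM in a library. One is CMKLR1, whose implied length was as much shorter as that of USP30: 3044 to 3180 bases in the knockdown library (a range from the rounding of its FPKM, and from 14 counts), against 4220 in the control library, a log2 ratio of -0.47 to -0.41. The other is FAM222A, at -0.17 to -0.14. Both USP30 lengths lie between those of annotated transcripts and do not say which transcripts were present. Without a stated strand setting, reads from USP30 and from its antisense partner cannot be told apart over the 233 shared bases.

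**Figure D3:**
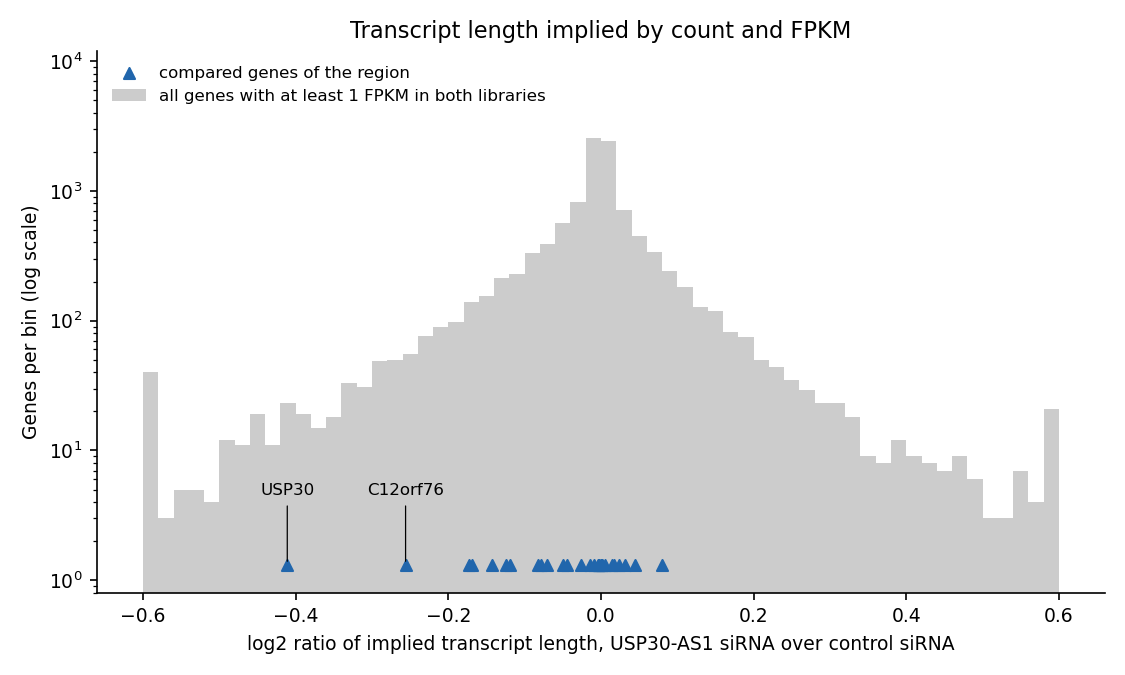
Histogram of the log2 ratio of implied transcript length, knockdown over control, for all genes with at least 1 FPKM in both libraries (gene number on a log axis), with triangles at the values of the 28 members; 58 genes beyond 0.6 in size are in the end bins. The triangle of USP30, at -0.41, lies in the low tail, and the other members drawn lie between -0.26 and 0.08; CMKLR1 and FAM222A, under 1 FPKM in a library, are not drawn.

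The genes that act with USP30 on mitochondria showed no shared direction. Of 16 compared genes of the mitophagy and outer-membrane list, 8 were below 0 and 8 above 0, with 0 past 2-fold and a median log2 ratio of -0.01. PINK1, a kinase that marks damaged mitochondria, had 970 counts in the knockdown library and 1215 in the control library (-0.03). USP15, another deubiquitinase that restrains mitophagy, was at 0.35 and the mitochondrial transport GTPase RHOT1 at -0.32. PPTC7, a member of the region and a mitochondrial phosphatase that limits mitophagy receptors, had 1167 counts in the knockdown library and 1468 in the control library, a log2 ratio of -0.03.

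CMKLR1 had 14 counts in the knockdown library and 343 in the control library, which is 19.9-fold lower (interval 11.7 to 36.8). Its log2 ratio of -3.61 was the lowest of all 11530 compared genes. CMKLR1 encodes a G protein-coupled receptor for chemerin, an adipokine and chemoattractant. It was a low-abundance transcript already in the control library, at 3.49 FPKM, against 0.23 FPKM in the knockdown library. The other members of the chemerin axis did not share this. CCRL2, a chemerin-binding receptor without known signalling of its own, had 597 counts in the knockdown library and 493 in the control library, 1.49-fold higher (interval 1.32 to 1.68). RARRES2, which encodes chemerin, had 18 counts in the knockdown library and 5 in the control library, and GPR1, a second chemerin receptor, had 26 and 37, both under the minimum.

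The nearest compared neighbours of CMKLR1 differed far less. FICD, an enzyme that modifies the endoplasmic reticulum chaperone BiP with AMP, had 173 counts in the knockdown library and 305 in the control library, 1.43-fold lower (interval 1.18 to 1.74). SART3, a factor that recycles spliceosomal small nuclear ribonucleoproteins, had 2608 counts in the knockdown library and 2705 in the control library, a log2 ratio of 0.25. FICD and SART3 overlap by 3258 bases on opposite strands. The RefSeq promoter window of CMKLR1 holds 2 CpG dinucleotides, where the median over the windows of all genes was 14. Most windows of the region hold more, but the window of WSCD2 also holds 2 and the outer window of USP30 holds 0.

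GLTP, a cytosolic protein that moves glycolipids between membranes, had 988 counts in the knockdown library and 575 in the control library. That is 2.12-fold higher (interval 1.91 to 2.35), so the counting interval reaches below 2-fold. Its FPKM was 21.03 in the knockdown library and 10.26 in the control library, and its implied length was nearly equal, 2401 and 2407 bases. Its nearest compared neighbour towards the target, FAM222A, a gene of little known function, had 61 counts in the knockdown library and 72 in the control library (0.05). Its neighbour on the other side, TCHP, a keratin-binding centrosomal protein that restrains cilium formation, had 725 and 722 counts (0.30).

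**Figure D4:**
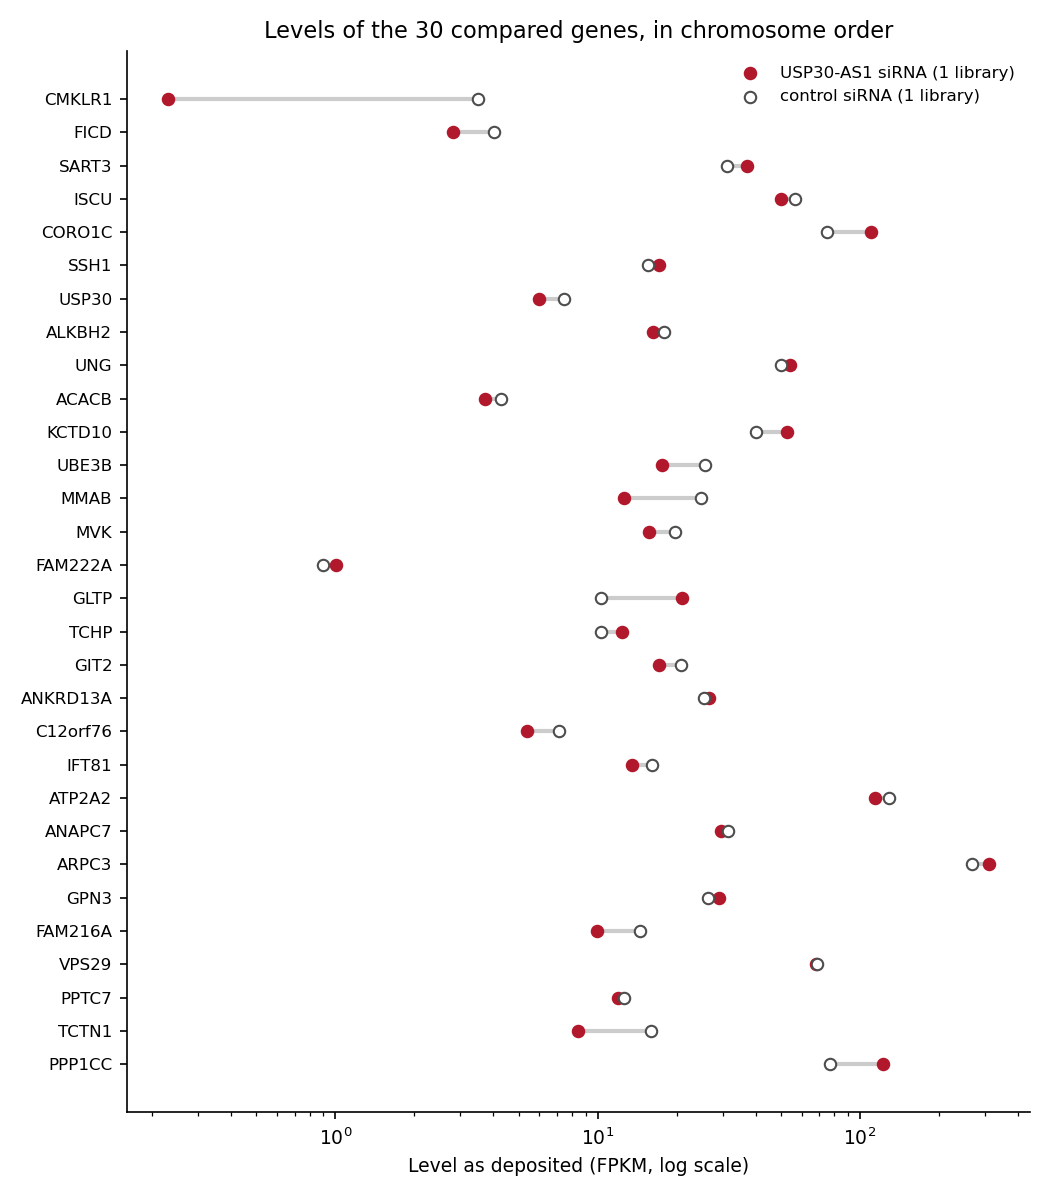
Deposited FPKM (log axis) of the 30 compared genes in chromosome order, with filled points for the knockdown library and open points for the control library, 1 library each. CMKLR1 stands at 0.23 in the knockdown library and 3.49 in the control library, while ARPC3, the most abundant, stands at 309.87 and 267.51.

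Pairs of genes that start close together and are read away from each other differed by unequal amounts, 2 pairs with opposite signs and 1 with both genes lower. There are 4 such pairs with annotated starts within 1 kb, and in 3 both genes were compared. KCTD10, an adaptor that brings RHOB and other substrates to a cullin ubiquitin ligase, and UBE3B, a HECT-type ubiquitin ligase that binds calmodulin, have starts 142 bases apart. KCTD10 had 2441 counts in the knockdown library and 2494 in the control library, 1.20-fold higher (interval 1.14 to 1.27). UBE3B had 1350 counts in the knockdown library and 2640 in the control library, 1.59-fold lower (interval 1.49 to 1.70). The log2 fold of KCTD10 minus that of UBE3B was 0.94, with a counting interval of 0.81 to 1.06. Such differences between genes of a pair were taken from the folds without the added 0.5 CPM, so they can depart slightly from the difference of the log2 ratios printed. The relatives of KCTD10 were both below 0, KCTD13 at -0.39 and TNFAIP1 at -0.19.

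The KCTD10 promoter window is shown for this pair, because 167 of its bases are also in the UBE3B window. It is chr12:109477251-109477550 (RefSeq, GRCh38.p14), printed on the minus strand. Capitals mark the word CGGAAGT, the core recognised by ETS factors, searched on both strands. It occurs 2 times in this window and 0 times in the UBE3B window. The UBE3B window begins at 109477384, and that edge cuts the word printed first. The word printed after it lies outside the UBE3B window. Both words lie between the RefSeq starts of KCTD10 (109477300) and UBE3B (109477634). The contrast of 2 against 0 thus depends on where the windows end and shows no difference between the promoters.
KCTD10 window: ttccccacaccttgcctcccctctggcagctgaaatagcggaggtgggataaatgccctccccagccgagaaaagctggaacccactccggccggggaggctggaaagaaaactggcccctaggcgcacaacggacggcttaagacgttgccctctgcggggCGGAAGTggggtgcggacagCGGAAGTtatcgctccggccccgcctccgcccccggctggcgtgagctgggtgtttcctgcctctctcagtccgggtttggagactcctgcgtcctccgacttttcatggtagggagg

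MMAB and MVK are the second pair, with annotated starts 619 bases apart. MMAB makes adenosylcobalamin, the cofactor of methylmalonyl-CoA mutase, and MVK is mevalonate kinase, an early enzyme of sterol and isoprenoid synthesis. MMAB had 344 counts in the knockdown library and 795 in the control library, 1.88-fold lower (interval 1.65 to 2.14). MVK had 472 counts in the knockdown library and 667 in the control library, 1.15-fold lower (interval 1.02 to 1.29). Both were thus lower, but by unequal amounts: the log2 fold of MMAB minus that of MVK was -0.71, with a counting interval of -0.97 to -0.46.

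The stretch that their RefSeq promoter windows share is 211 bases long, chr12:109573544-109573754 on the plus strand (GRCh38.p14). Capitals mark CCAAT on either strand (it reads ATTGG where it lies on the minus strand), the box bound by NF-Y, and TCACCCC, a core of the sterol regulatory element. The stretch holds 5 CCAAT words and 1 TCACCCC.
MMAB and MVK shared stretch: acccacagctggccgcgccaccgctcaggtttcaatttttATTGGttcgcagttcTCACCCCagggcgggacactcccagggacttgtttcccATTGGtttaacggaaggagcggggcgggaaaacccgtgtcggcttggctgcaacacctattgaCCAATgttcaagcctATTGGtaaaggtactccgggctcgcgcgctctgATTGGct

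The other genes of the mevalonate pathway were mostly below 0, and those of cobalamin handling mostly above 0. Of 14 mevalonate pathway genes other than MVK, 12 were below 0 and 2 above, with a median log2 ratio of -0.29 and 1 at least 2-fold lower. That one was INSIG1, which retains the sterol sensor in the endoplasmic reticulum, with 1170 counts in the knockdown library and 2950 in the control library (2.05-fold lower, interval 1.91 to 2.19). MVD and PMVK, the enzymes that follow MVK, were 1.99-fold (interval 1.74 to 2.27) and 1.91-fold (interval 1.46 to 2.51) lower. PMVK had only 80 counts in the knockdown library and 188 in the control library. The later enzymes FDPS and FDFT1 had log2 ratios of -0.065 and -0.002. Of 10 cobalamin genes other than MMAB, 3 were below 0 and 7 above, with a median of 0.17. MMADHC, which directs cobalamin to its targets in cytosol and mitochondria, had 2414 counts in the knockdown library and 1773 in the control library, 1.68-fold higher (interval 1.58 to 1.78).

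In the third pair, GPN3, a GTPase needed for nuclear import of RNA polymerase II, and FAM216A, a gene of unknown function, have starts 904 bases apart. GPN3 had 819 counts in the knockdown library and 870 in the control library, a log2 ratio of 0.21, and FAM216A had 213 and 367, 1.40-fold lower (interval 1.18 to 1.67). The log2 fold of GPN3 minus that of FAM216A was 0.70 (interval 0.41 to 0.99). The relatives GPN1 and GPN2 were at 0.13 and 0.14. VPS29 and RAD9B are the fourth pair, 462 bases apart, and RAD9B had too few counts to compare. VPS29, a retromer subunit, had 1270 counts in the knockdown library and 1528 in the control library (0.03), and of 7 other retromer genes 4 were below 0 and 3 above, with a median of -0.01. SART3 and ISCU lie just outside the distance limit, at 1182 bases, and differed by 0.36 (interval 0.21 to 0.50).

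**Figure D5:**
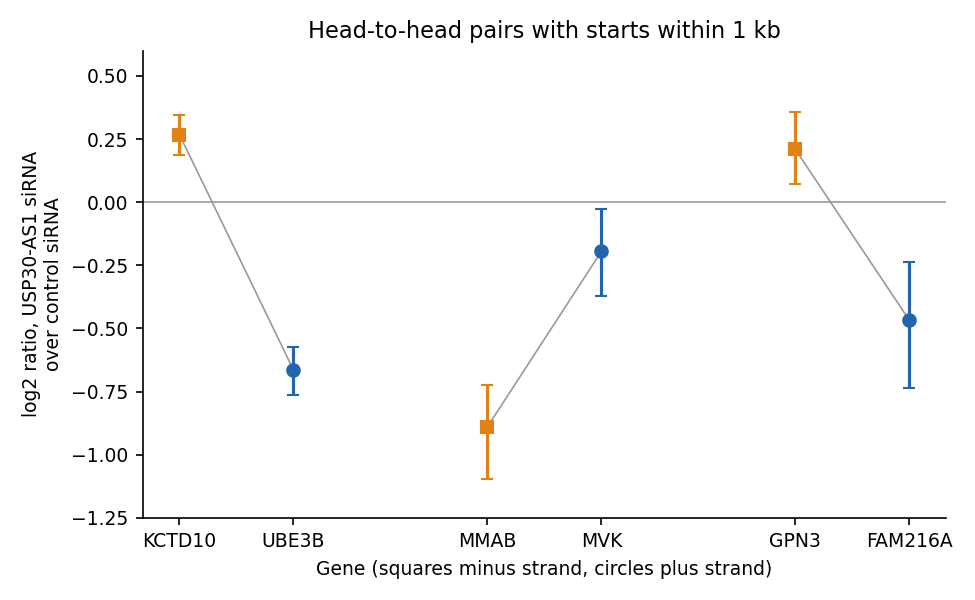
Log2 ratio of knockdown over control for both genes of each divergent pair with both genes compared; bars are 95% counting intervals of the fold. In each pair the genes differ by more than their counting intervals: KCTD10 at 0.27 with UBE3B at -0.66, MMAB at -0.89 with MVK at -0.20, and GPN3 at 0.21 with FAM216A at -0.47.

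Over the 44 RefSeq windows of 33 members, the share with each word was as follows. CCAAT was in 17 windows (38.6%), against 34.6% of 35116 windows of all genes. TCACCCC was in 3 (6.82%), against 5.48%, and CGGAAGT was in 7 (15.9%), against 6.83%. These are matches of letters and not sites of binding.

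TCTN1 lay just inside 2-fold. It encodes a tectonic protein of the ciliary transition zone, and it had 261 counts in the knockdown library and 627 in the control library, 1.95-fold lower (interval 1.69 to 2.26). IFT81, a subunit of the intraflagellar transport complex that carries tubulin, had 759 counts in the knockdown library and 1054 in the control library, 1.13-fold lower (interval 1.03 to 1.24). Of 8 other tectonic and intraflagellar transport genes, 6 were below 0 and 2 above, with a median log2 ratio of -0.26 and 0 past 2-fold. TCTN3 was at -0.60 and TCTN2 at -0.25. TCTN1 overlaps HVCN1 by 21590 bases on the other strand, and the deposited counts of both were fractions, 261.48 and 11.52 in the knockdown library and 626.84 and 8.16 in the control library, which add to the whole numbers 273 and 635. Reads were thus shared out between these genes, but the share given to HVCN1 was small.

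The genes of actin assembly were on the higher side. CORO1C, a coronin that binds actin filaments, had 6277 counts in the knockdown library and 5309 in the control library, 1.46-fold higher (interval 1.40 to 1.51). ARPC3, a subunit of the Arp2/3 complex that nucleates branched filaments, had 5127 counts in the knockdown library and 5264 in the control library, 1.20-fold higher after scaling (interval 1.15 to 1.25). SSH1, a phosphatase that activates cofilin, had 2623 and 3090 counts (0.06). Of 15 other Arp2/3 and actin genes, 11 were above 0 and 4 below, with a median log2 ratio of 0.39 and 0 past 2-fold. ARPC1B was at 0.68 and ARPC2 at 0.56, while ARPC4 went the other way, at -0.76.

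PPP1CC, a catalytic subunit of protein phosphatase 1, was the second highest member, with 5440 counts in the knockdown library and 4482 in the control library, 1.49-fold higher (interval 1.44 to 1.55). The other catalytic subunits, PPP1CB at 0.31 and PPP1CA at 0.25, were on the same side. ATP2A2, the calcium pump of the endoplasmic reticulum, had the most counts of the region, 10586 in the knockdown library and 15062 in the control library, and was 1.16-fold lower (interval 1.13 to 1.19). ANAPC7, a subunit of the anaphase-promoting complex, had 1606 and 1966 counts, a log2 ratio of 0.01, and 10 of 15 other genes of that complex and its activators were below 0, with a median of -0.08.

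The DNA repair genes nearest to the target hardly differed. ALKBH2, which reverses alkylation damage in DNA and starts 39.7 kb from the start of USP30-AS1, had 296 counts in the knockdown library and 393 in the control library, a log2 ratio of -0.11, and its interval of 0.925 to 1.26-fold lower includes no difference. UNG, which removes uracil from DNA and starts at 43.6 kb, had 2198 and 2429 counts, 1.11-fold higher (interval 1.05 to 1.18). Of 14 other base excision repair genes, 8 were below 0 and 6 above. 1 of them was past 2-fold: TDG, a thymine and uracil glycosylase, had 1891 counts in the knockdown library and 757 in the control library, 3.07-fold higher (interval 2.82 to 3.35). Of 8 other genes of the ALKB family 5 were below 0, with a median of -0.09.

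For the members ISCU and ACACB no difference was detectable beyond counting error. ISCU, the scaffold on which iron-sulphur clusters are built, had 991 counts in the knockdown library and 1317 in the control library (1.08-fold lower, interval 0.993 to 1.17), and of 10 other genes of that process 5 were below 0 and 5 above. Among those that act after the scaffold, GLRX5 and ISCA2 were at -0.70 and -0.64, and ISCA1 and HSPA9 at 0.31 and 0.25. ACACB, the mitochondrial acetyl-CoA carboxylase that starts 62.6 kb from the start of USP30-AS1, had 399 counts in the knockdown library and 552 in the control library (1.12-fold lower, interval 0.986 to 1.28). Its cytosolic relative ACACA was at -0.19.

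The last members are regulators of trafficking and genes of little known function. GIT2, a GTPase-activating protein for ARF proteins, had 1532 counts in the knockdown library and 2422 in the control library, 1.28-fold lower (interval 1.20 to 1.37), and its relative GIT1 was at -0.34. ANKRD13A, a ubiquitin-binding protein of receptor endocytosis, had 1697 and 1947 counts (0.10). C12orf76 had 106 counts in the knockdown library and 200 in the control library, 1.53-fold lower (interval 1.21 to 1.96), or -0.57 with the added 0.5 CPM, which is just under 1.5-fold. The span of GIT2 overlaps that of TCHP by 54050 bases, and the span of C12orf76 overlaps that of ANKRD13A by 12736 bases, each on opposite strands. These spans include introns, and only reads from bases that are exonic in both genes could not be told apart without strand. The deposited counts of these genes were whole numbers, unlike those of TCTN1 and HVCN1. RAD9B and PPTC7 also had counts that were not whole, although their annotated spans do not overlap. These were 6.01 and 1166.99 in the knockdown library and 4.01 and 1467.99 in the control library. Counts that are not whole are thus no sure mark of overlapping spans.

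The 3′ untranslated regions were searched for a pair of 7-base words and their 1-base shifts: AACTCCA or ACTCCAA, and CCTAAGA or CTAAGAA. Both words had been picked in earlier work on these same libraries, the first as common in genes that were lower and the second in genes that were higher, so their link with direction is no independent result. The first was in 6 of 30 members, against 19.0% of 11404 compared genes with an annotated 3′ untranslated region. The second was in 2 members (6.67%), against 19.0% of those genes. The sites in CMKLR1, MMAB, GIT2, KCTD10, PPP1CC and GLTP are shown, and those in SSH1 are not. All are on the minus strand of GRCh38 by GENCODE 29, with the word in capitals.
CMKLR1: atcagcccatgAACTCCAtaggccatgaa
MMAB: aatgcctggcgAACTCCAttcagccatca
GIT2: cacggtgccaaAACTCCAAacaagttcccc
KCTD10: gttctttccccAACTCCAgccccgtccag
PPP1CC: aaagactcttcACTCCAAaaagaaaagtg
GLTP: agattttccaaCCTAAGAAactacctaccg

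The CMKLR1 site is at chr12:108291278-108291306, position 546 of a 3797-base untranslated region. The GLTP site is at chr12:109851195-109851224, position 1342 of 1612. Of the 6 carriers of the first word, CMKLR1, MMAB and GIT2 were below 0, and SSH1, KCTD10 and PPP1CC above 0. Their median log2 ratio was -0.15, against -0.07 in the other 24 members. Over all genes it was -0.12 in 2163 carriers and 0.03 in the others. The MMAB site is in MMAB-210, a transcript of 4438 bases, while the implied length of MMAB was 1400 bases in the knockdown library and 1383 in the control library. USP30, UBE3B and TCTN1, also among the 5 lower members, hold neither word in the transcripts searched, and the second word was in GLTP and SSH1.

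By the FDR of the authors' deposited table, 20 of the 42 members were under 0.05, where 35.7 percent of all 20289 genes were. All 20 are among the 30 compared members, and of the 11530 compared genes 58.7 percent were under 0.05 in the authors' deposited table. It also gives a log2 fold of size 1 or more for 2 of these, CMKLR1, at -3.92, and GLTP, at 1.04, where 4.37 percent of all 20289 genes met both conditions.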

How the data were processed

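Values came from 1 deposited table. Per the file headers it holds counts and FPKM for each library, with the log2 fold, p-value and FDR of the authors' deposited comparison, whose test is not stated. The deposited counts are expected counts (11.4% of knockdown and 12.0% of control values were not whole) and were rounded. Tools listed without order in the submitters' processing notes are RSEM, HISAT2, fastp 0.18.0 and StringTie 1.3.1, with build GRCh38. Strand setting and annotation release: not given in the sources used here. In the table, the control column carries the control's title. The other, Si-179, was taken as the knockdown because the table is titled for that comparison.

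Scaling used TMM (edgeR 4.0.16, R 4.3.3; factors 0.983 knockdown, 1.017 control). Alternatives were DESeq2 1.42.0 size factors, library totals, other minimums and pseudocounts, and the deposited FPKM. Positions and transcripts are from GENCODE 29 (20171 of 20289 identifiers matched), promoters from RefSeq. Scripts were tested on simulated data. All members are accounted for, and those compared are named with their counts. Flanking genes are named if past 2-fold, and OAS3 was added because it lies between OAS1 and OAS2. Pathway genes named with values came from fixed lists, and the few examples given were chosen after their values were seen. The members, lists and words were chosen with earlier results of these data known.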

Additional observations from a re-analysis of the deposited data

How the results depend on the processing

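With DESeq2 size factors, library totals, a pseudocount of 0.1 CPM or the deposited FPKM, 1 member passed 2-fold in each direction, as in the main comparison. With a minimum of 200 mean counts 0 members were at least 2-fold lower, because CMKLR1 then has too few counts to be compared. The region's median log2 ratio lay between -0.12 (library totals, where the median of all genes was -0.05) and -0.01. Members below 0 numbered 14 of 27 with a minimum of 200 (all genes 49.1%), 18 of 36 with no minimum (51.8%), and 18 of 30 with library totals (56.0%) or FPKM (54.0%). In 2 alternatives chosen after seeing the data, leaving out CMKLR1 gave a median of -0.03, and leaving out members that overlap another member gave -0.01 with 8 of 16 below 0. CMKLR1 ran from -3.60 to -4.14. The log2 ratio of USP30 was -0.32 by the deposited FPKM and otherwise -0.66 to -0.71. ANAPC7 and VPS29, both near 0, changed sign with library totals and with FPKM. No paired analysis was possible because each group has 1 library. Counting error does not cover differences between cultures, which 1 library per group cannot show. The level of USP30-AS1 was not analysed here.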

Other observations

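Among the compared genes of the region, the strands differed in their counts. Of 14 genes on the plus strand, the strand of USP30, 10 were below 0, with a median log2 ratio of -0.18, where 50.3% of all 5874 compared plus-strand genes and 46.2% of the 312 others on chromosome 12 were below 0. Of 16 on the minus strand, the strand of USP30-AS1, 6 were below 0, with a median of 0.05, where 50.4% of all 5636 compared minus-strand genes and 48.4% of the 273 others on chromosome 12 were below 0. Both members past 2-fold, CMKLR1 and GLTP, are on the minus strand. This split was noticed after the values were seen and was not tested.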
